A study of Homo sapiens with 17 samples.

Results

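The regions described here are stretches of the genome listed by the authors for the comparison of H3K4me3 between Ras-induced and control IMR90 cells. They comprise every entry of that list, 806 of the 6322 regions in the 5 lists deposited for the series. Of these, 755 lie on the 22 autosomes, 51 on chromosome X and 0 on chromosome Y, and the layout is described for the 755 autosomal regions. IMR90 is a line of human lung fibroblasts. Both groups were at population doubling 15, and per the labels the inducible cells carried an ER:Ras fusion delivered by a retrovirus, pLNC-ER:Ras. Ras-induced cells received 100 nM of 4-hydroxytamoxifen, the ligand that switches on the fusion. The labels call the other group control cells and do not say whether they carried the construct. Cells of the oncogene experiment were grown in medium with 20% serum and 500 μg/ml of G418. Chromatin was immunoprecipitated with an antibody against H3K4me3 and sequenced, with 1 library a side, and 1 histone H3 library was made from each group. The authors' name for the regions, mesas, is taken to mean gain of the mark; the list itself states no direction.

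Trimethylation of lysine 4 of histone H3 (H3K4me3) is placed by SET1 and MLL complexes and normally forms narrow peaks at active promoters. Lamina-associated domains (LADs) are long stretches of chromatin that touch the lamina at the edge of the nucleus, are mostly gene-poor and silent, and are bound by lamin B1. Oncogenic Ras drives fibroblasts into a stable arrest, oncogene-induced senescence, in which lamin B1 is lost and heterochromatin is rearranged. The LADs used below were mapped with lamin B1 in 1 library of proliferating cells at doubling 24, not in the Ras-carrying cells.

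The files hold the chromosome, start and end of each region in build hg18, with no signal, count or p-value. The depth of the libraries is unknown here, no difference can be set against replicate error, and no comparison below has a test. Errors are the standard deviation (SD) over the 22 autosomes, which share the same libraries, and 95% Wilson intervals of shares treat regions as independent and cover counting error only. The regions were long: the shortest had 501.0 kb, the median 751.0 kb and the longest 4.47 Mb. Regions under 600 kb numbered 196, those of at least 1 Mb 204 and those of at least 2 Mb 21. No region was shorter than 501.0 kb and no gap between neighbours was shorter than 50.0 kb, although the sources used here state neither limit.

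The regions were crowded towards the ends of the chromosomes and thinned out towards their middle. In the first 5 Mb from a chromosome end they covered 44.8% of base pairs, and from 5 to 10 Mb they covered 41.4%. Cover was 30.9% from 10 to 20 Mb, 24.0% from 20 to 40 Mb and 14.5% beyond 40 Mb. Each class of distance thus had less cover than the one before it. The number of regions fell from 10 Mb inwards: there were 4.05 per 10 Mb in the first 5 Mb, 4.14 from 5 to 10 Mb, 3.44 from 10 to 20 Mb, 2.84 from 20 to 40 Mb and 1.82 beyond. The first 2 of these values were close, and the second was the higher one. The median length was 954 kb among the 89 regions centred in the first 5 Mb, 777 kb in the next class and 653 kb among the 210 centred beyond 40 Mb.

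**Figure D1:**
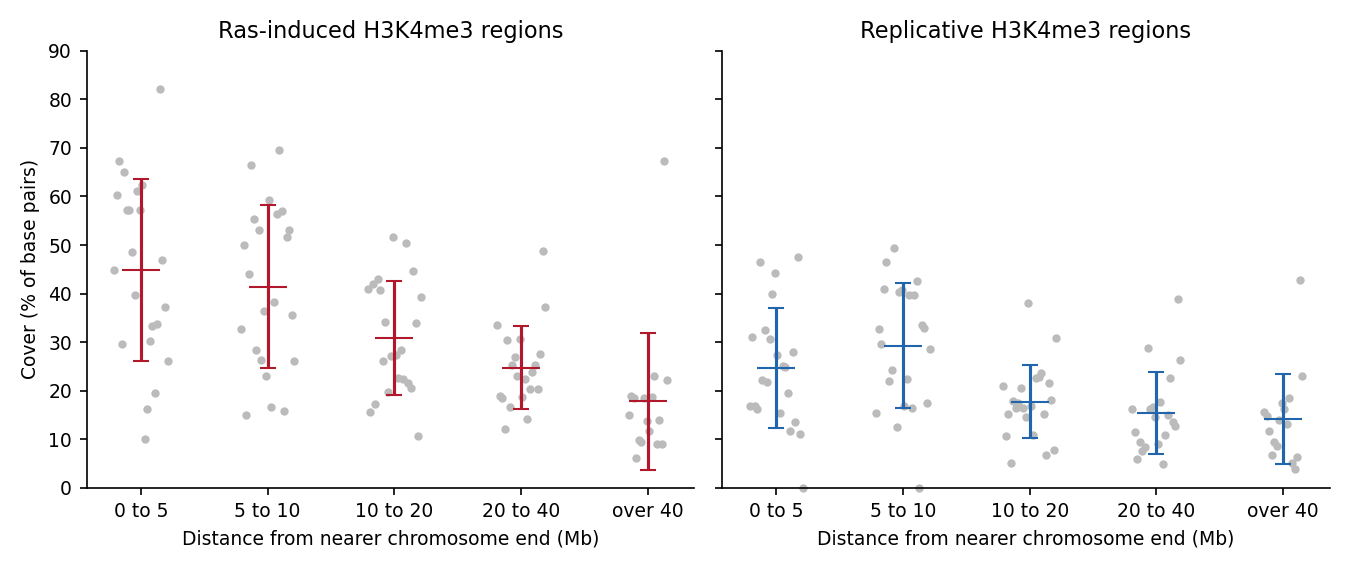
Cover (percent of base pairs) by distance from the nearer end of the chromosome span, for Ras-induced (left) and replicative (right) H3K4me3 regions. Grey points are single autosomes, and the bars are the mean and SD over autosomes (22 in the first 3 classes, then 20 and 16). Ras-induced cover falls from 44.8 ± 18.8% in the first 5 Mb to 17.8 ± 14.1% beyond 40 Mb, where the high point is chromosome 15 with only 2.17 Mb in that class.

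The difference was also present within single chromosomes. The outer 10 Mb at both ends had 43.1% cover and the rest of the autosomes 20.6%, a difference of 22.5 percentage points. Averaged over chromosomes the difference was 20.2 ± 14.7 points (SD, n = 22), and it was above 0 on 19 of 22. It was widest on chromosome 5, with 65.7% cover in the outer 10 Mb and 19.05% elsewhere. On chromosome 12 the outer part had 60.9% and the rest 17.1%. The exceptions were chromosome 22 (26.1% outer, 39.3% rest), chromosome 13 (13.3% and 16.4%) and chromosome 18 (24.8% and 25.1%).

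Chromosomes 13 and 22 are acrocentric, as are 14, 15 and 21, with short arms that hold repeats. The lists begin close to their centromeres, so the lower end of their span is no chromosome tip. In the 10 Mb at that lower end the 5 acrocentric chromosomes had 13.7 ± 11.5% cover, against 44.8 ± 18.1% at their higher end. On chromosome 21 those 10 Mb include a stretch of 2.87 Mb that no list touches, from 10300001 to 13170000. On the 17 other autosomes the lower end had 42.8 ± 17.5% and the higher end 51.5 ± 18.8%. Every one of these ends held some region. The lowest end among the 17 was the lower end of chromosome 18, at 5.92%, and the highest was the higher end of chromosome 19, at 81.1%.

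Cover by LADs varied much less with position than the regions did. LADs made up 68.7% of base pairs in the first 5 Mb and 59.8% beyond 40 Mb. Inside LADs the regions covered 52.4% of base pairs in the first 5 Mb and 18.2% beyond 40 Mb. Outside LADs they covered 28.1% and 9.12%. Cover thus declined from end to middle on both sides of the LAD border. The H3K27me3 lists moved with position as well. These lists record where trimethylation of lysine 27, the mark of Polycomb repression, was gained (mesas) or lost (canyons) in replicative senescence. H3K27me3 gains covered 32.8% of the first 5 Mb and 11.6% beyond 40 Mb, and losses 17.2% and 38.3%. Their part in the position of the H3K4me3 regions was not tested.

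Replicative senescence, reached by serial passage to doubling 87, has its own H3K4me3 list from 1 library a side, with 587 autosomal regions. Its cover also was higher near ends, at 26.98% in the outer 10 Mb and 14.2% elsewhere, and higher there on 19 of 22 autosomes. The gap between outer part and rest was 12.8 points, against 22.5 points for the Ras-induced regions. The Ras-induced list covered more of the autosomal span, 24.2% against 16.2%, and more cover widens a difference in points. As a ratio of outer part to rest, cover was 2.09 for the Ras-induced and 1.90 for the replicative regions. The Ras-induced difference was the larger one on 16 of 22 chromosomes, by a mean of 8.79 ± 13.1 points (SD), a mean smaller than its own spread. Beyond 40 Mb the lists were closer, with 14.5% Ras-induced and 12.6% replicative cover, than in the first 5 Mb, with 44.8% and 24.7%.

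**Figure D2:**
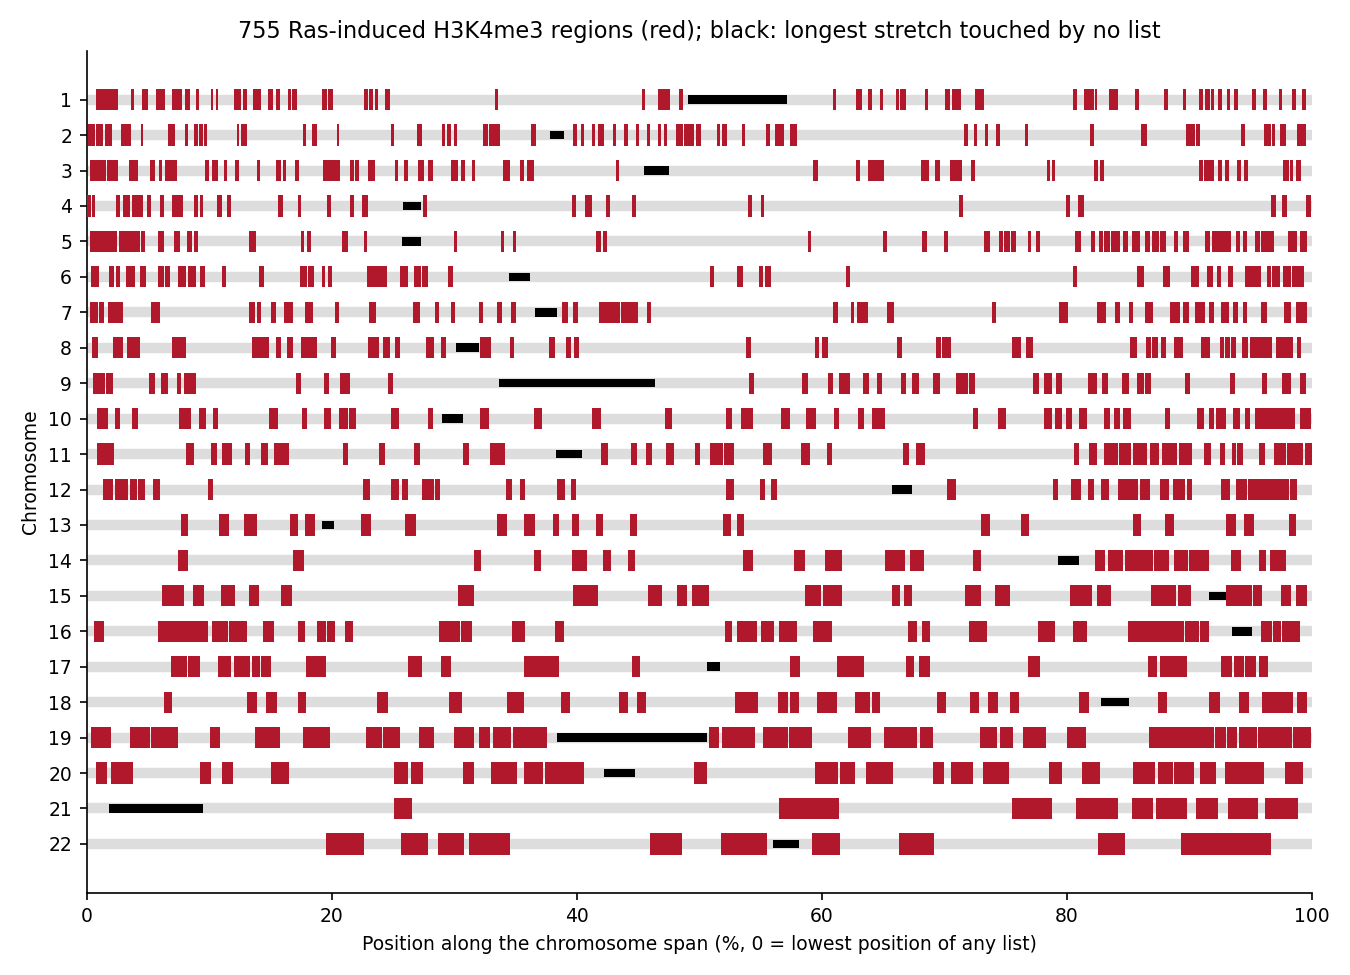
The 755 autosomal Ras-induced H3K4me3 regions (red) along each of 22 autosomes, with position in percent of the span over which any list has a region. Black bars mark the longest stretch of each chromosome that no list touches. Red is dense near the ends of the bars and along most of chromosome 19, and long stretches of chromosomes 2, 4 and 6 have none.

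Spacing was uneven, with close neighbours and very long empty stretches on the same chromosomes. A gap is the distance from the end of a region to the start of the next, and gaps across the longest stretch that no list touches were left out on each chromosome. The 712 gaps had a median of 1.19 Mb, with quartiles at 377 kb and 2.88 Mb. The SD of the gaps was 1.64 times their mean. The smallest was 50.0 kb and the largest 33.1 Mb. Gaps of at most 100 kb numbered 75, or 10.5%, and gaps of at least 5 Mb numbered 90, or 12.6%. Those 90 held 53.9% of all base pairs between neighbours, so most of the ground without a region lay in a small number of long stretches. Replicative regions had a median gap of 1.97 Mb over 544 gaps, and their median gap was longer on 20 of 22 autosomes. That list has fewer autosomal regions, 587 against 755, and fewer regions leave longer gaps. The longer gaps are therefore not read as a difference in layout. The SD of the replicative gaps was 1.45 times their mean.

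**Figure D3:**
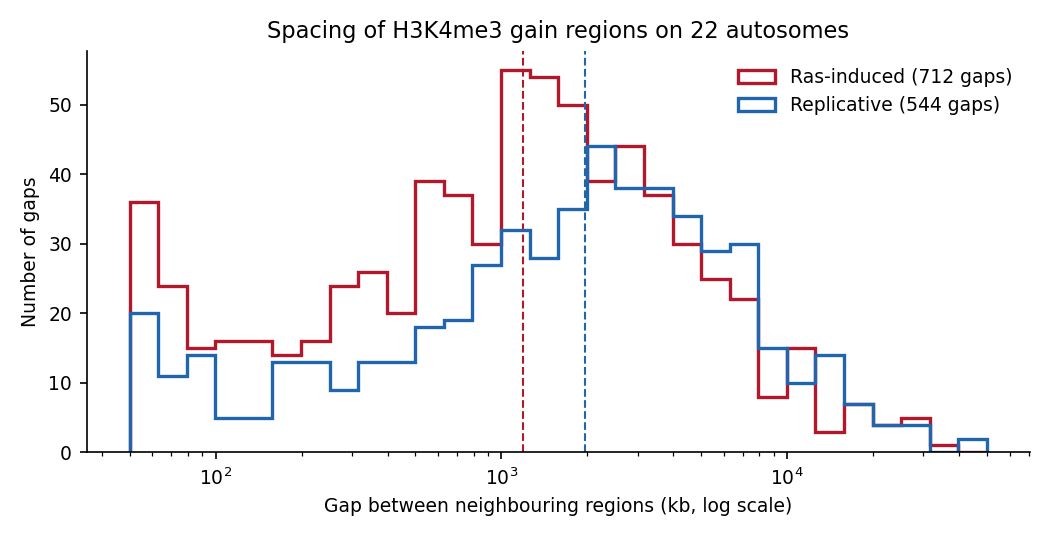
Number of gaps by their length (kb, log scale) for the Ras-induced and replicative H3K4me3 lists on 22 autosomes; dashed lines mark the medians. The Ras-induced median lies at 1.19 Mb and the replicative one at 1.97 Mb, and both distributions begin at 50.0 kb, with more gaps in the first bin than in the next.

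Among the counted gaps, the longest stretches between neighbours crossed LADs and the ground between them alike. The gaps left out included ones of 40795 kb on chromosome 9, 35910 kb on chromosome 6 and 31597 kb on chromosome 3. The stretch that no list touches made up 17.9, 2.86 and 4.21 Mb of these. On chromosome 2 no region lay from 140734000 to 173855000 (33.1 Mb), of which 58.8% was LAD. This stretch held 2 whole replicative regions, and 39.2% of it was under H3K27me3 losses. On chromosome 6 the stretch from 106488000 to 137642000 (31.2 Mb) held 3 whole replicative regions and was 60.4% under H3K27me3 losses and 0.913% under gains. On chromosome 4 the stretch from 105828000 to 136240000 (30.4 Mb) held 0 whole replicative regions, with 69.2% in LADs and 59.1% under H3K27me3 losses. The stretches on chromosomes 4 and 6 were thus mostly ground where H3K27me3 was lost.

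What lay in a gap changed with its length. In the 75 gaps of at most 100 kb, 73.0% of base pairs were LAD, 42.8% were under H3K27me3 gains and 34.5% under replicative H3K4me3 regions. These short gaps come to only 4.99 Mb in all, and 9 of them held a LAD edge. In the 90 gaps over 5 Mb, 59.4% of base pairs were LAD, 5.92% were under H3K27me3 gains, 48.4% under losses and 7.23% under replicative regions. A whole replicative region lay in 51 of these 90 gaps. The SD over chromosomes was large, at 20.8 points for the losses in the longest gaps and 34.5 points for the gains in the shortest.

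Runs of closely spaced regions were uncommon. With a run defined as at least 3 regions in which no gap exceeds 100 kb, there were 10 runs with 34 regions, or 4.50% of regions (95% interval 3.24 to 6.23%). They lay on 9 chromosomes. Another 51 pairs of regions were as close without any further member. The replicative list had 2 such runs with 6 regions, or 1.02% of its regions (0.469 to 2.21%). Members of a run are neighbours by definition, so these intervals over regions do not serve to compare the lists. That list also has fewer regions, which leaves longer gaps, so no difference in layout is read from these shares. When 2 regions made a run, the shares were closer, at 18.01% Ras-induced and 14.99% replicative. With at least 3 regions and gaps up to 500 kb, the shares were 21.7% and 11.8%. The number of regions in runs depends on the gap allowed: up to 200 kb gave 24 runs with 84 Ras-induced regions, and up to 500 kb gave 45 runs with 164.

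Ordered by the number of regions and then by length, the first run was at the higher end of chromosome 19, from 55355001 to 63789999. It held 6 regions, the largest of 3.35 Mb, with gaps of 52.0 to 91.0 kb, and 96.2% of its 8.43 Mb was covered. It met 5 LADs, and 85.1% of its region base pairs lay in them. It ended 0.0217 Mb from the last position of any list on that chromosome. The next, with more regions than any of the rest, was near the lower end of chromosome 1, from 1843001 to 6313999, with 4 regions in 4.47 Mb. There 95.6% of region base pairs lay in LADs and 93.6% under H3K27me3 gains. After it came one near the higher end of chromosome 12, from 124196001 to 130772999. Its 3 regions in 6.58 Mb lay wholly in 1 LAD, and 99.5% of their base pairs were under H3K27me3 gains. These 3 runs lay within 2 Mb of a chromosome end, and the other 7 lay 4.72 to 66.5 Mb from one, among them the run on chromosome 16, which at 5.81 Mb was longer than that on chromosome 1. H3K27me3 gains covered 16.3% of the region base pairs of the run on chromosome 19.

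Regions in runs differed from isolated ones, which lay over 1 Mb from both neighbours. The 264 isolated regions had a median length of 702 kb and a median distance of 33.3 Mb from a chromosome end. The 34 regions in runs had medians of 852 kb and 8.05 Mb. H3K27me3 gains covered 65.5% of the base pairs of regions in runs (SD over 9 chromosomes 27.1 points) and 30.6% of those of isolated regions (SD over 22 chromosomes 17.3 points). H3K27me3 losses covered 8.06% and 30.6%. Replicative H3K4me3 regions covered 37.2% and 40.8%, a difference well within the SD over chromosomes of either value (24.0 and 9.77 points). Of regions in runs 93.4% of base pairs lay in LADs, and of isolated regions 77.2%.

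Windows of 5 Mb gave the same uneven picture. Of 548 windows, 145 had no Ras-induced region and 65 were at least 50% covered, with a median cover of 20.0%. Cover of neighbouring windows was correlated (Pearson r = 0.39 across 526 pairs, given as a description, since neighbours share regions that span their border). The windows at least 50% covered were 42.2% under H3K27me3 gains and 19.2% under losses, and those without a region 5.27% and 38.4%. Over all 548 windows the values were 17.0% and 35.9%, and for losses the windows without a region differed from them by far less than their SD over chromosomes of 23.5 points. Of all windows, 90 had Ras-induced regions and no replicative one, 52 had replicative regions only, 313 had both and 93 neither. The fullest window, on chromosome 12 from 125000001 to 130000000, was 97.0% covered and lay wholly in a LAD. Next were chromosome 16 from 5110001 to 10110000 (91.0% covered) and chromosome 14 from 92980001 to 97980000 (89.4% covered), with 84.3% and 78.5% under H3K27me3 gains.

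Many regions reached across the border of a LAD, and their share depended on how an edge was counted. Of the 755 autosomal regions, 434 held at least 1 LAD edge, or 57.5% (53.9 to 61.0%), with 57.6 ± 9.13% (SD) over 22 chromosomes. When at least 100 kb was required on each side of an edge, the share was 41.5%, and with LADs joined across gaps of up to 200 kb it was 45.8%. The other regions lay wholly inside 1 LAD (280, or 37.1%) or wholly outside LADs (41, or 5.43%). Exactly 1 edge was crossed by 221 regions, and 2 to 6 edges by 213. On chromosome X, where LADs are long and their edges few, 16 of 51 regions held an edge. LAD edges were not favoured ground, however. Of 3960 autosomal LAD edges, 786 lay in a region, or 19.8% (18.6 to 21.1%), while the regions covered 24.2% of the autosomal span. The share of edges was below the share of the span on 19 of 22 chromosomes, by a mean of 5.65 points with an SD of 5.42.

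Regions that crossed several edges were longer. The median length was 599 kb for regions outside LADs, 683 kb for those inside a LAD, 735 kb for those with 1 edge and 915 kb for those with 2 or more. Of regions under 600 kb, 45.9% crossed an edge, and of those of at least 1 Mb, 71.1%. A longer region meets more edges wherever it lies, so no preference for edges is read from this order. In the replicative list the crossing share was 42.9% (39.0 to 47.0%). It was below the Ras-induced share in both length classes, at 35.3% among the short regions and 55.9% among the long ones. The Ras-induced share was the higher one on 18 of 22 chromosomes, by a mean of 13.7 ± 17.5 points (SD), a mean smaller than its spread.

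Regions with 1 edge lay mostly on the LAD side. A median of 540 kb (quartiles 412 and 818 kb) lay inside the LAD and 145 kb (58.0 and 320 kb) outside, and 178 of the 221 had most of their length in the LAD. The part outside was under 100 kb in 85 regions. A region with 1 edge reaches into no more than 1 LAD and 1 gap between LADs. These gaps were the shorter, with a median of 300 kb against 430 kb for LADs. No preference for the LAD side is therefore read from these lengths. The edges of the LAD list stand on a grid of 10 kb. Of the 213 regions with 2 or more edges, 89 held both a whole LAD and a whole gap between LADs, 66 held only a whole LAD and 58 only a whole gap. Together, regions enclosed 188 of 2001 autosomal LADs and 165 of 1981 gaps between LADs. The enclosed LADs had a median length of 280 kb, against 430 kb for all autosomal LADs. The enclosed gaps had a median of 150 kb, against 300 kb for all gaps between autosomal LADs. A region can enclose only what is shorter than itself, so these medians carry no comparison beyond that.

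The regions with most edges show this mixed ground. On chromosome 1 the region from 115389001 to 117680999 (2.29 Mb) held 6 edges, with 2 whole LADs and 3 whole gaps, and 72.1% of it was LAD. On chromosome 17 the region from 14048001 to 15369999 (1.32 Mb) held 6 edges and was 50.8% LAD, all of it under H3K27me3 losses. On chromosome 4 the region from 7123001 to 8782999 (1.66 Mb) held 5 edges and was 46.6% LAD. Replicative H3K4me3 regions covered 57.7% and 52.0% of those on chromosomes 1 and 17. The 3 longest regions differed from each other in the same respect. That on chromosome 12 from 125449001 to 129915999 lay wholly in a LAD. That on chromosome 16 from 75540001 to 79575999 (4.04 Mb) held 4 edges and was 5.35% under replicative regions, and that on chromosome 19 from 55355001 to 58704999 (3.35 Mb) held 2 edges and was 45.2% under them.

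The other marks changed with the class of region. H3K27me3 gains covered 55.1% of base pairs of regions inside a LAD (SD over chromosomes 24.1 points), 39.3% with 1 edge, 24.5% with 2 or more and 4.19% outside LADs. H3K27me3 losses ran the other way, at 7.68%, 24.1%, 35.7% and 69.3% (SD 30.8 points over the 20 chromosomes with regions outside LADs). Replicative H3K4me3 regions covered 40.1% inside a LAD, 47.2% with 1 edge and 38.2% with 2 or more, values within 1 SD over chromosomes of each other, and 9.00% outside LADs. In regions with 1 edge, the LAD side was 48.1% under H3K27me3 gains and 16.2% under losses, and the other side 12.1% and 48.6%. Replicative regions covered 56.9% of the LAD side and 17.1% of the other. The lists are split by LADs in the same direction over the whole autosomal span: all LADs were 25.7% under H3K27me3 gains, 23.6% under losses and 23.6% under replicative regions, and all other ground 3.72%, 54.7% and 4.51%. Nothing particular to the border is read from the sides of the crossing regions. Both H3K27me3 lists come from other cells than the Ras experiment.

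**Figure D4:**
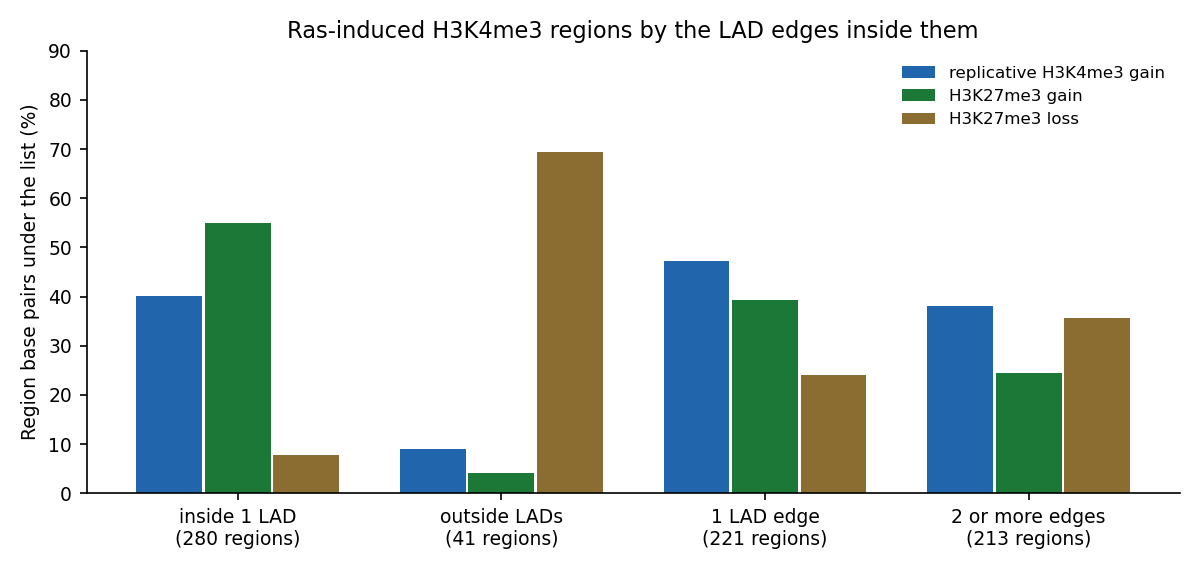
Percent of base pairs of Ras-induced H3K4me3 regions that lie under the replicative H3K4me3, H3K27me3 gain and H3K27me3 loss lists, for regions inside 1 LAD, outside LADs, with 1 LAD edge and with 2 or more. Bars pool all autosomes and carry no error bar; H3K27me3 gain falls from 55.1% inside a LAD to 4.19% outside, and loss rises from 7.68% to 69.3%.

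The crossings were uneven in direction along the sequence, but the order of the counts turned with a small move of the regions. Of the 221 regions with 1 edge, 130 began in the LAD and left it at their higher coordinate, and 91 began outside and ended in the LAD. Counted over all 755 regions, the lower end stood in a LAD 509 times and the higher end 463 times, and the lower end was in a LAD more often on 17 chromosomes and less often on 4. The replicative list was uneven in the same direction, with 107 and 49 regions. When the Ras-induced regions were moved down by 20 kb, the counts of 1-edge regions became 104 and 105, and by 30 kb 94 and 116. The share of regions that cross an edge stayed at 57.6% after the move of 30 kb. The order of the counts thus rests on a distance of about 20 kb, and statements on single edges hold only to that precision. Overlap of each H3K4me3 list with LADs was highest with the regions moved by -20 kb, only slightly above the unmoved value. Overlap of the Ras-induced regions with the replicative H3K4me3 list and with the H3K27me3 gain list was highest unmoved. These moves are no test of an offset, and the cause of the uneven counts was not tested.

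Chromosomes differed widely in cover, from 11.8% on chromosome 4 to 53.2% on chromosome 19, a ratio of 4.52. Chromosome 19, the most gene-dense human chromosome and home of large clusters of zinc-finger genes, was followed by chromosome 20 with 40.3% and chromosome 16 with 36.6%. At the other end, chromosome 13 had 15.8% and chromosome 9 had 19.1%. The span of chromosome 9 includes a long stretch that no list touches, and its rank did not hold. With empty stretches over 1 Mb left out, chromosome 6 took its place, and with the span counted from base 1 chromosome 14 did. Without chromosome 19 the mean cover was 24.9 ± 6.34% (SD, 21 autosomes). Shorter chromosomes had more cover (Pearson r = -0.51 and Spearman rho = -0.65 between span and cover over 22 autosomes, which share the same libraries; r = -0.50 without chromosome 19). The replicative list shared part of this order, with its highest cover on chromosomes 19 (28.7%), 20 (28.1%) and 16 (24.5%) and its lowest on 13 (8.88%) and 4 (9.40%).

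High cover went with more regions and with longer ones. Chromosome 19 had 4.70 regions per 10 Mb and chromosome 20 had 4.16, and the next, chromosome 18, had 3.42. Chromosome 4 had 1.62. Mean length was 1131 kb on chromosome 19, 1125 kb on chromosome 22 and 1119 kb on chromosome 16, against 690 kb on chromosome 13 and 726 kb on chromosome 4. Chromosomes 18 and 22 show that the 2 quantities can part: chromosome 18 had many short regions and 24.99% cover, and chromosome 22 had 2.83 long ones per 10 Mb and 31.8% cover. Over 22 autosomes cover was correlated with regions per 10 Mb at r = 0.93 and with mean length at r = 0.79; both enter cover by construction.

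**Figure D5:**
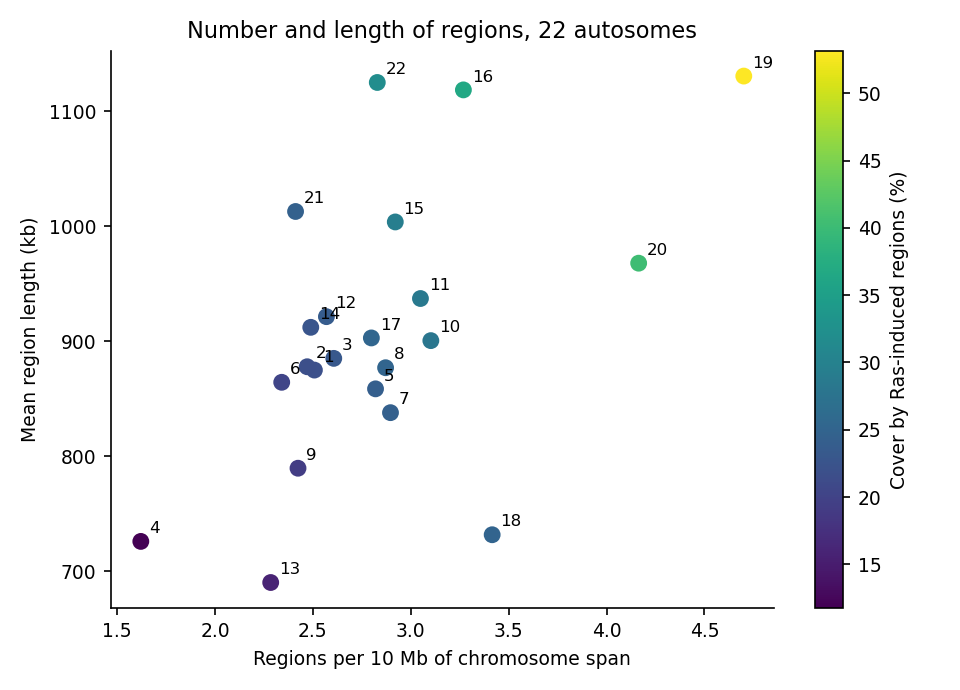
Mean region length (kb) against regions per 10 Mb of chromosome span, 1 point per autosome, coloured by percent cover. Chromosome 19 stands at 4.70 regions per 10 Mb and 1131 kb, chromosome 4 at 1.62 and 726 kb, and chromosome 13 has the shortest regions.

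On chromosome 19 the regions filled both sides of an empty stretch from 24520001 to 32330000 that no list touches. Its 30 regions covered 55.4% of the 24.5 Mb below it (13 regions) and 64.6% of the 31.5 Mb above it (17 regions). The median gap of the chromosome was 0.354 Mb, the shortest of all 22 autosomes, where the mean was 1.16 ± 0.458 Mb (SD). Chromosome 21 was next to it at 0.356 Mb with 9 regions. LADs covered 70.4% of chromosome 19, the highest share of any autosome, against 60.6 ± 4.06% (SD) on the other 21. Cover was also high for a given kind of ground: the regions took up 64.7% of its LAD base pairs (32.0 ± 9.01% on the others) and 25.6% of the rest (14.1 ± 4.02%). Both values were above those of every other autosome.

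The regions of chromosome 19 fell into stretches with different marks. No region lay wholly outside LADs, 10 lay inside 1 LAD and 20 crossed an edge. The first 3 regions, between 230001 and 4739999, had no replicative H3K4me3 region on them. From 17315001 to 23988999 lay 5 regions of which 52.7 to 100% was under replicative regions and at most 1.76% under H3K27me3 gains. Above the empty stretch, from 32423001 to 37780999, 4 regions were 79.8 to 100% under H3K27me3 gains. Farther up, the region from 41522001 to 43242999 and its neighbour to 44094999 were 100% under H3K27me3 losses. Of the 30 regions, 7 had at least 50% of their length under gains, 7 at least 50% under losses, and 20 met a replicative region. The Ras-induced regions of this chromosome thus lay over H3K27me3 gains, over H3K27me3 losses and over ground in neither list.

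Chromosomes 4 and 13 had the least cover, although LADs made up 69.5% and 61.3% of them, at or above the autosomal mean of 61.1 ± 4.49% (SD). Only 13.1% of LAD base pairs of chromosome 4 and 20.9% of those of chromosome 13 were under regions. On chromosome 4 the outer 10 Mb still had 36.8% cover, and the rest 8.84%, the lowest value of any autosome. On chromosome 13 the outer part had 13.3%, also the lowest. The longest regions there, of 1.66 Mb on chromosome 4 and 1.01 Mb on chromosome 13, were far below the 4.47 Mb reached on chromosome 12. H3K27me3 gains covered 2.97% of chromosome 4, less than of any other autosome, and H3K27me3 losses 60.5% of chromosome 13, more than of any other. Across the 22 autosomes cover by Ras-induced regions and by H3K27me3 losses had Pearson r = -0.52, and without chromosome 19 r = -0.47, given as a description. Spearman rho was weaker, at -0.42 and -0.34.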

How the data were processed

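ChIP-seq regions came from 17 libraries in 11 groups. The authors used Bowtie 0.12.5 and build hg18, per the submitters' processing notes; how regions were called, and how the H3 libraries entered, is not given in the sources used here. The deposited lists, other values than coordinates being absent or 0, give the start and end of regions in bp. All starts were multiples of 1000 bp for H3K4me3, 100 bp for H3K27me3 and 10 kb for LADs. Depth is unknown.

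All steps used Python 3.11.15 with numpy 2.4.6 and scipy 1.17.1. The span of a chromosome is the stretch between the outermost positions of all lists. Any overlap of 1 bp counted. Measures were tested on 20 simulated sets, in all of which planted runs and crossings were recovered. No test was made, since each H3K4me3 list rests on 1 library a side. Gene names and sequences were not used, because the reference tables are of another build.

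Named were the 3 longest regions, the first 3 runs by number of regions and then length, and the 3 longest of the counted gaps. The 3 fullest windows and the 3 regions with most LAD edges were named too. Each kind had at most 1 per chromosome. The 3 autosomes with most and with least cover were also named. Regions of chromosome 8 were left out by position. The stretches named on chromosome 19 and the run named on chromosome 16 were chosen after their values were seen. The members and measures were chosen with earlier results of these data known.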

Additional observations from a re-analysis of the deposited data

How the results depend on the processing

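Of 37 alternatives, 22 left a value within its spread and 15 moved it. Some of them could not come out otherwise and say nothing on stability. Joining LADs across gaps of at most 50 kb changed nothing, because the smallest gap between LADs was 60 kb. Counting the span from base 1 could not change the cover of chromosome 19 or the ratio, because the spans of chromosomes 19 and 4 begin there. Of these values only the difference between outer 10 Mb and rest has a sign, and it kept it. With regions of at least 1 Mb only, the median gap became 3953 kb, no region (0%) was in a run, 71.1% crossed a LAD edge, cover of chromosome 19 was 35.3% and the ratio of highest to lowest autosome 33.6, with chromosome 13 lowest in place of 4. The share in runs was 0% with gaps up to 50 kb, 11.1% up to 200 kb, 21.7% up to 500 kb and 18.01% when 2 regions made a run. The 0% was fixed in advance, because the smallest gap was 50.001 kb. Empty windows numbered 615 of 1386 at 2 Mb and 32 of 268 at 10 Mb. The crossing share fell to 50.5% with at least 50 kb on each side of an edge, 41.5% with 100 kb, 53.1% with LADs of at least 200 kb only, and 45.8% with LADs joined across gaps up to 200 kb, the last and the 100 kb value being under 50%. Moving the regions down by 30 kb turned the order of the 1-edge counts, from 130 and 91 to 94 and 116. The joining of LADs, the moved regions, the gaps across the longest empty stretch and the higher ends of acrocentric chromosomes were chosen after the data were seen. The difference between outer 10 Mb and rest lay between 18.8 and 26.4 points in all its alternatives. The longest stretch that no list touches need not be the centromere. No paired analysis was possible because the result comes from no test and each H3K4me3 group has 1 library.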
